A study of Mus musculus with 3 samples.

Results

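The genes described here encode 6 connexins (Gja1, Gja4, Gja5, Gjc1, Gjb1 and Gjb2) and 1 pannexin (Panx1), chosen for their place in the electrical and metabolic coupling of mesangial, renin and endothelial cells. They are 7 of the 39304 rows of the expression table, and each matched exactly 1 row by its Ensembl gene identifier. The RNA came from glomeruli, the capillary tufts that filter blood in the kidney, of a wild-type C57BL/6 male mouse aged 8 weeks. Cells were separated in a microfluidic chip, identified by qPCR of marker genes, and the cDNA of 15 mesangial and 15 endothelial cells was combined and split into 3 aliquots for library construction. The aliquots are therefore technical repeats of 1 pool from 1 mouse, there is no second group, and every SD below (n = 3 aliquots) describes library construction and sequencing rather than mice. A transcript in the pool cannot be assigned to either cell type, and fewer cells with a transcript cannot be told apart from less transcript per cell.

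Connexins are membrane proteins that assemble into hemichannels, and hemichannels of adjacent cells dock into gap junction channels that pass ions, calcium signals and small metabolites. In the glomerulus and its arterioles such channels couple endothelial cells with each other and link the mesangium to the renin-producing cells of the juxtaglomerular apparatus. Pannexins form related channels that in general do not dock, and Panx1 releases ATP, which acts on purinergic receptors of neighbouring cells. In mice, loss of Gja5 (Cx40) from renin cells disturbs the control of renin secretion by blood pressure.

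The start site regions of 3 members are shown so that the 2 most abundant connexins of the pool, Gja5 and Gja4, can be compared with Gja1, the connexin most widely found across tissues and listed at 0 here. Each sequence is from RefSeq (GRCm38.p6), runs 5′ to 3′ in the direction of the gene and covers 250 bases before to 50 bases after the start site. Capitals mark matches, on either strand, to 9 motifs: the TATA box TATAAA, the Sp factor site GGGCGG, the Krüppel-like factor site CACCC, the AP-1 site TGANTCA, the GATA factor site AGATAA, the Sox core ACAAT, the forkhead site GTAAACA, the Notch effector (RBPJ) site GTGGGAA and the ETS site CCGGAAG. Gja5 lies at chr3:97032152-97032451 on the plus strand, Gja4 at chr4:127313990-127314289 on the minus strand and Gja1 at chr10:56377050-56377349 on the plus strand. These start sites are RefSeq's and need not be those of the GENCODE M21 annotation used for the gene coordinates: they coincide for Gja4, the Gja1 site lies 30 bases before the GENCODE gene, and the Gja5 site lies 14 bases before 2 GENCODE transcripts (3109 and 405 bases) but 127709 bases inside the gene, whose first base belongs to another transcript.
Gja5: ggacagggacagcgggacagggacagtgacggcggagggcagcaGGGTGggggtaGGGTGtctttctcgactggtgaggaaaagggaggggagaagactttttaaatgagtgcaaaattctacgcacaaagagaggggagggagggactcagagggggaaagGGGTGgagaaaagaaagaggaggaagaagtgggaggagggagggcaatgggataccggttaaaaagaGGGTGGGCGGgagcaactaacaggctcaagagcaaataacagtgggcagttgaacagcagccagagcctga
Gja4: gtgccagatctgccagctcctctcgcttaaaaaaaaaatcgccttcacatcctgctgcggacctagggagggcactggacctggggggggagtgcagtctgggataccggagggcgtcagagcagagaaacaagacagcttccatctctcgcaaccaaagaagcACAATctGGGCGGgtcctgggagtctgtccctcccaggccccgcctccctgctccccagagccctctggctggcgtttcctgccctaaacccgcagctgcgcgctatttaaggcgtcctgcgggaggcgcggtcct
Gja1: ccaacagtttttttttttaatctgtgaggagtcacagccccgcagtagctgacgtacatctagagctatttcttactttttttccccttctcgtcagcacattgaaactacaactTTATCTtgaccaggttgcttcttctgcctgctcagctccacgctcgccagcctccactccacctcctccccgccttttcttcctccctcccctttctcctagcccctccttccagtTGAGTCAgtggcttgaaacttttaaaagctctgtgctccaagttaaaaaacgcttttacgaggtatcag

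Gja5 and Gja4 both carry the Sp factor site, which occurs in 35.7% of 32851 promoters of this length. Its first base lies 17 bases before the start site in Gja5 and 79 bases before it in Gja4. In Gja5 this match overlaps the nearest of its 4 CACCC matches, a motif present in 57.5% of promoters, while Gja4 has 1 Sox core, found in 31.0%. The Gja1 region has no Sp or CACCC match, but 1 AP-1 site (7.81% of promoters) 19 bases before the start site and 1 GATA site (11.2%). The TATA, forkhead, RBPJ and ETS motifs as spelled above were not in these 3 windows; their shares of all promoters are 13.6%, 3.65%, 6.38% and 8.86%. CpG dinucleotides number 7 in Gja5, 16 in Gja4 and 8 in Gja1, against a median of 7 over all promoters. The difference from Gja1 does not extend to all members listed at 0. The Gjb2 region has 2 Sp and 7 CACCC matches and 1 of the Gjb1 regions has 3 and 5, while Panx1 has neither. These matches describe the letters and do not show binding or a link to level.

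The library totals recovered from the FPKM values (reads per kilobase of gene length, set to 1000000 library reads) lay between 9141422 and 10976563 reads. The labelled cell types were checked with marker genes: all 8 mesangial and all 9 endothelial markers that had no part in choosing the cells were detected, that is, reached 1 FPKM in every aliquot, with medians of 481 and 267 FPKM. Markers of other cell types were detected unevenly, which does not show that such cells were in the pool. Of 8 podocyte markers 5 were detected (summed level 157 to 169 FPKM over the aliquots). Podxl was the highest at 75.9 ± 2.15 FPKM and Lmx1b the lowest at 0.237 ± 0.111 FPKM. Podocyte genes of the qPCR selection were also measured, Wt1 at 101 ± 3.18 FPKM and Synpo at 36.7 ± 1.04 FPKM, although podocytes are not among the labelled cells. Of 6 smooth muscle markers 5 were detected (sum 1571 to 1666 FPKM, mostly Myl9), with Cnn1 listed at 0. Besides Myl9 these were Acta2 (72.8 ± 1.88 FPKM), Tagln (61.2 ± 3.14 FPKM), Myh11 (16.4 ± 1.11 FPKM) and Smtn (7.07 ± 0.413 FPKM). All 7 tubule and all 6 macrophage markers were listed at 0. Whether such other cells were present, and any part they had in the connexin levels, was not tested.

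The connexins Gja5, Gja4 and Gjc1 were detected, and the other 4 genes were listed at 0 in all aliquots. Detection of 3 of 7 members compares with 21.7% of all rows and 36.4% of protein-coding rows, so the count itself is not a result about these genes. Summed over 17 connexin genes, the transcripts amounted to 139, 131 and 141 FPKM in aliquots 1, 2 and 3, or 239 ± 9.07 reads per 1000000. Gja5 supplied 73.0% ± 0.698 of that FPKM sum, Gja4 23.8% ± 0.744 and Gjc1 3.16% ± 0.196. At these gene lengths, and with the listed zeros taken as true, Gja5 made up most of the connexin level in each aliquot. The shares themselves rest on the lengths used. At the longest transcripts the means would be 47.9 FPKM for Gja5, 32.6 FPKM for Gja4 and 2.48 FPKM for Gjc1.

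**Figure D1:**
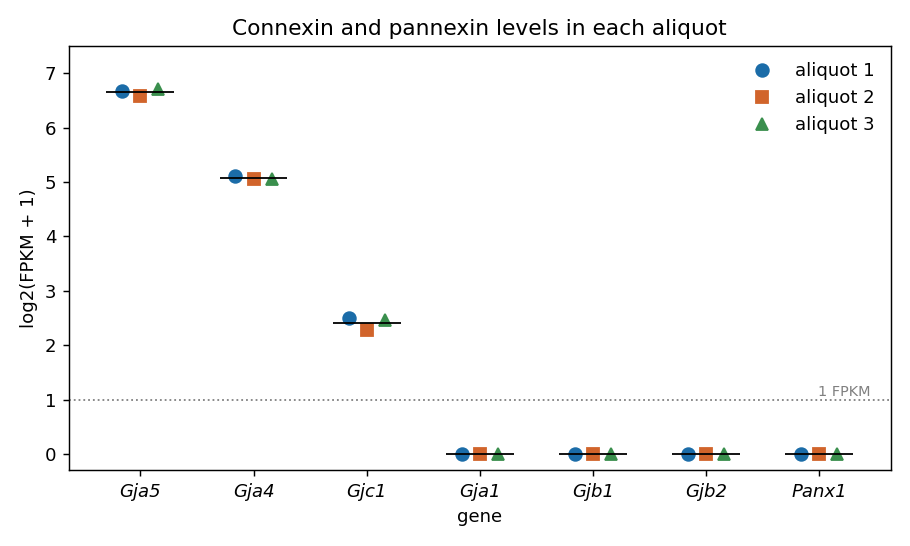
Level of each member as log2(FPKM + 1) in the 3 aliquots (points) with their mean (black line); the dotted line marks 1 FPKM. Gja5, Gja4 and Gjc1 form separate steps at means of 100.001, 32.6 and 4.34 FPKM, and Gja1, Gjb1, Gjb2 and Panx1 lie at 0 in every aliquot.

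Gja5 (ENSMUSG00000057123) encodes Cx40, a connexin known from arterial endothelium and renin cells, though not only from these. Which cells of the pool its reads came from cannot be told. It is annotated on chromosome 3 from 96904693 to 97077416 on the plus strand (GRCm38, GENCODE M21). It measured 101, 95.2 and 104 FPKM in aliquots 1, 2 and 3, a mean of 100.001 ± 4.47 FPKM. Aliquot 2 was the lowest and aliquot 3 the highest, and all 3 stayed far above every other member. The values rest on 1619, 1744 and 2006 reads. Gja5 ranked 1169 among all rows, above 89.5% of the 11142 genes with any reads.

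The Gja5 level depends on the length by which its reads were divided. The FPKM values imply 1757 bases, which is the mean of 2 of the 3 annotated transcripts (3109 and 405 bases), while the longest transcript has 3668. At 3109 bases the mean would be 56.5 FPKM, and at 3668 bases 47.9 FPKM. The 3668-base transcript is also the only one of the 3 with sequence found in other genes. Of its windows of 50 bases, 760 also occur in transcripts of Zfp697 (120, 119 and 117 FPKM), and 116 match Gpr89 (40.2, 39.9 and 39.3 FPKM) on the opposite strand. The 2 transcripts that match the implied length share no window with another gene.

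Gja4 (ENSMUSG00000050234), on chromosome 4 from 127311421 to 127314039 on the minus strand, encodes Cx37, a second connexin of arterial endothelium that in kidney also occurs in renin cells. It measured 33.3, 32.0 and 32.4 FPKM in aliquots 1, 2 and 3, a mean of 32.6 ± 0.653 FPKM. The aliquots were almost level, with 513, 563 and 599 reads. Gja4 stood above 71.5% of genes with reads. It has 1 annotated transcript of 1685 bases, equal to the implied length, and none of its windows of 50 bases occurs in another gene.

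Gjc1 (ENSMUSG00000034520), on chromosome 11 from 102799579 to 102819700 on the minus strand, encodes Cx45, a connexin of vascular smooth muscle and other mural cells. Its levels of 4.65, 3.88 and 4.48 FPKM in aliquots 1, 2 and 3 gave a mean of 4.34 ± 0.404 FPKM. Aliquot 2 was again the lowest, from only 83, 79 and 96 reads. With 36.3% of genes with reads below it, Gjc1 stood under their median of 10.6 FPKM. The implied length of 1953 bases matches the mean of all 5 annotated transcripts, among them a retained intron of 3413 bases, and scaling to that longest one would give 2.48 FPKM.

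**Figure D2:**
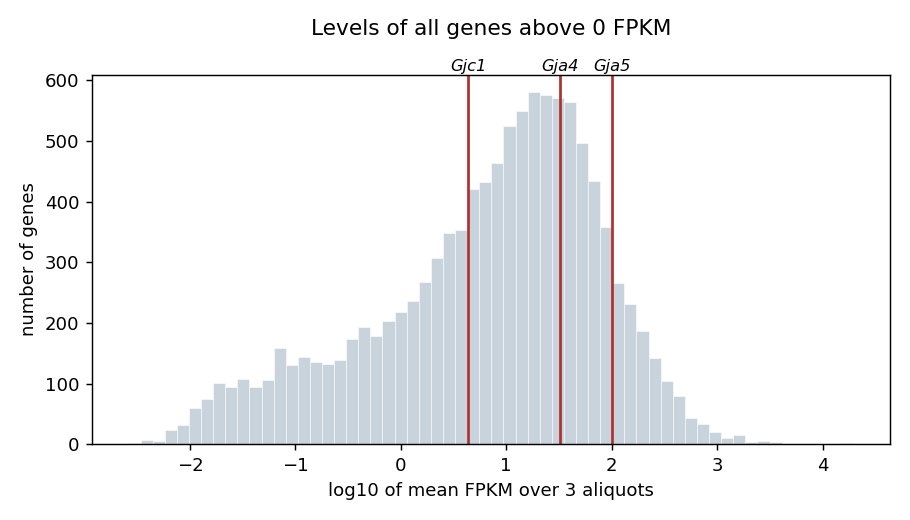
Histogram of log10 mean FPKM over the 11142 genes above 0 in at least 1 aliquot, with red lines at the detected connexins. Gjc1 falls in the left shoulder of the distribution (percentile 36.3), Gja4 to the right of its peak (71.5) and Gja5 in the upper tail (89.5).

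The order Gja5, Gja4, Gjc1 held in every aliquot, and no neighbours in it overlapped. The lowest Gja5 value, 95.2 FPKM, exceeded the highest Gja4 value, 33.3 FPKM, and the lowest Gja4 value, 32.0 FPKM, exceeded the highest Gjc1 value, 4.65 FPKM. Within aliquots 1, 2 and 3 the ratio of Gja5 to Gja4 was 3.03, 2.97 and 3.21, or 1.62 ± 0.06 on the log2 scale. The ratio of Gja5 to Gja4 was thus nearly the same in the 3 aliquots, and the ratio before library construction was not measured. The log2 ratio of Gja5 to Gjc1 was 4.53 ± 0.09 and that of Gja4 to Gjc1 2.91 ± 0.11. With all genes scaled to their longest transcript the order was unchanged, but Gja5 to Gja4 shrank to 0.56. With the longest of the transcripts behind the implied length, an alternative chosen after seeing the data, it was 0.79. The size of the step between these genes therefore rests on the gene length used.

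The aliquots were compared gene by gene: the recovered reads of 9120 genes with at least 30 reads were set against the share of each library by chi-square. None of the 3 detected connexins differed beyond sampling noise after Benjamini-Hochberg adjustment, where 1.09% of all genes tested did. With all 3 aliquots that was 99 genes. Run anew on 2 aliquots, the test called 2 genes without aliquot 1, 98 without aliquot 2 and 65 without aliquot 3. Gja5 came nearest, with chi-square p = 0.024 and adjusted p = 0.34, and was the 1 member with an unadjusted p under 0.05. Its unadjusted chi-square p was 0.0068 without aliquot 1, 0.35 without aliquot 2 and 0.097 without aliquot 3. Its coefficient of variation was 4.47%, against 2.36% from counting alone and a median of 2.52% among 1108 genes with reads within 1.5 times its own, of which 87.8% varied less. Gja4 varied by 2.003% with 4.23% from counting alone (chi-square adjusted p = 0.96), and Gjc1 by 9.33% with 10.8% (adjusted p = 0.84). Reads of amplified cDNA are not independent molecules, so these figures cover counting error only.

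**Figure D3:**
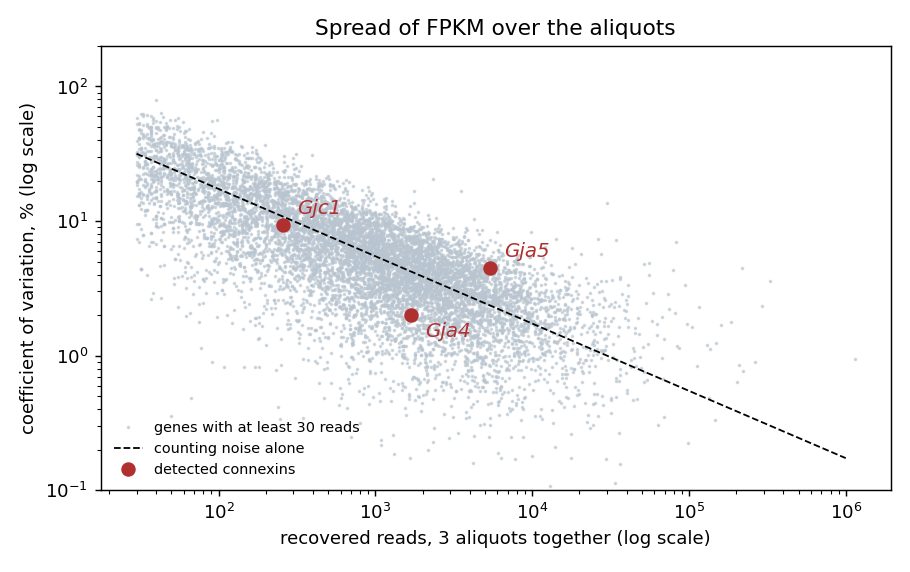
Coefficient of variation of FPKM over the 3 aliquots against recovered reads, both on log scales, for genes with at least 30 reads (grey) and the detected connexins (red); the dashed line is counting noise alone. Gja4 (2.003%) and Gjc1 (9.33%) lie below the line, and Gja5 (4.47%) lies above it.

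Gja1 (ENSMUSG00000050953), on chromosome 10 from 56377330 to 56402513 on the plus strand, encodes Cx43, which is found in many cell types including cultured mesangial cells. It was listed at 0, 0 and 0 FPKM. No exon base of Gja1 overlaps another annotated gene, and 0.115% of its windows of 50 bases occur in other transcripts. If the zeros are true counts, 3 reads over the aliquots together would correspond to 0.0535 FPKM at the mean transcript length of 1836 bases. A listed zero need not mean that the transcript is absent. The table lists 54.6% of protein-coding rows at 0, among them the mitochondrial gene mt-Nd4l, whose neighbour mt-Nd4 had 1233 ± 59.1 FPKM, both named after their values were seen. Gja1 is therefore reported as listed at 0 and no fold against it is given.

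Gjb1 and Gjb2 encode Cx32 and Cx26, beta connexins best known from epithelia such as liver and cochlea. Both were listed at 0 in each aliquot, as were all 7 tubule markers. Gjb1 (ENSMUSG00000047797) lies on chromosome X from 101376378 to 101385629, and Gjb2 (ENSMUSG00000046352) on chromosome 14 from 57098600 to 57104702. The level of 3 reads over the aliquots together would be 0.0632 FPKM for Gjb1 and 0.0408 FPKM for Gjb2 at their mean transcript lengths. Neither gene shares an exon base or a window of 50 bases with another gene.

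Panx1 (ENSMUSG00000031934), on chromosome 9 from 15002128 to 15045478 on the minus strand, encodes the pannexin that releases ATP. It too was listed at 0 in each aliquot, where 3 reads would be 0.0461 FPKM at its mean transcript length of 2129.5 bases. Its exons and windows are likewise free of overlap with other genes. Panx2 and Panx3, the other pannexin genes, were also listed at 0.

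Other connexins were examined in the same way. Of 17 connexin genes examined, Gja5, Gja4 and Gjc1 were detected and the other 14 were listed at 0, with no gene in between. Gjb5 lies 40769 bases from Gja4 on the same strand and was listed at 0. On chromosome 14 Gja3, Gjb2 and Gjb6 lie side by side, and all of them were at 0.

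Partner genes were then described by lists, whose counts of detected genes stand beside the 36.4% of protein-coding rows and 21.7% of all rows detected and are no result about a list. Of 11 junction partners, which anchor, carry or remove gap junctions, 7 were detected, with a median of 14.2 FPKM against 0 over all rows. The ubiquitin ligase Nedd4, which in rat binds Cx43, had the highest level at 625 ± 13.5 FPKM. It was followed by beta-catenin (Ctnnb1, 220.1 ± 3.99 FPKM), caveolin 1 (Cav1, 204 ± 5.71 FPKM) and the endothelial cadherin Cdh5 (31.8 ± 2.70 FPKM). The scaffold Tjp1 (ZO-1), which binds connexin tails, had 18.9 ± 0.691 FPKM. Ccn3, a partner of Cx43, and Tjp3 were listed at 0, and Cnst, which encodes the connexin trafficking factor consortin, had 0.0421, 0 and 0 FPKM in aliquots 1, 2 and 3.

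Of 7 kinases known to phosphorylate or signal to connexins 5 were detected, with a median of 36.2 FPKM. The MAP kinase Mapk3 (128 ± 2.30 FPKM) led, followed by protein kinase C alpha (Prkca, 90.7 ± 2.06 FPKM), Akt1 (36.7 ± 2.92 FPKM) and the protein kinase A catalytic subunit (Prkaca, 36.2 ± 1.24 FPKM). This order rests on the gene lengths used. Prkca had more reads than Mapk3 (8241 against 4393). Implied lengths are 2973 bases for Prkca and 965 for Akt1, with longest transcripts of 8409 and 2690. The lowest were Csnk1d, the casein kinase 1 delta gene, at 0.489 ± 0.0814 FPKM and Src at 0.0428 ± 0.00411 FPKM, the last from 1 read in each aliquot.

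ATP release and its receptors were then examined, since Panx1 acts through them. Of 7 genes for ATP release channels and transporters 1 was detected, Lrrc8a, a subunit of volume-regulated anion channels, at 148 ± 3.06 FPKM. Calhm2 lay below the detection limit at 0.450, 0.329 and 0.4995 FPKM in aliquots 1, 2 and 3, and the vesicular nucleotide transporter Slc17a9 was listed at 0. Of 14 P2 receptors 4 were detected: the ATP-gated channels P2rx4 (56.5 ± 4.32 FPKM), P2rx1 (52.6 ± 1.02 FPKM) and P2rx7 (3.50 ± 0.440 FPKM) and the G protein-coupled P2ry1 (2.39 ± 0.305 FPKM). At the lengths implied by the FPKM values, all 3 ATP-gated channels had higher means than P2ry1. For P2rx7 this rests on the length used, since it had 264 reads against 283 for P2ry1. Its implied length is 2457 bases and its longest transcript 4936, while both are 3886 for P2ry1. P2rx4 has an implied length of 591 bases and a longest transcript of 3895. P2ry2 and P2ry6 were among the 10 P2 receptors listed at 0. At a limit of 5 FPKM 2 P2 receptors were left.

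Ectonucleotidases, which turn extracellular ATP into adenosine, were represented by both steps of the pathway. Entpd1 (CD39), which removes phosphates from ATP and ADP, had 79.9 ± 2.30 FPKM, and Nt5e (CD73), which makes adenosine from AMP, had 83.1 ± 0.683 FPKM. That these levels are close rests on the gene lengths used, since Entpd1 had 2590 reads and Nt5e 9086. Implied lengths are 1059 bases for Entpd1 and 3580 for Nt5e, with longest transcripts of 4221 and 3995. With adenosine deaminase (Ada, 6.73 ± 0.265 FPKM), Entpd1 and Nt5e were the 3 detected genes of 11 on the list. Adenosine receptors were not detected: Adora2a had 0.0863, 0.0757 and 0.0360 FPKM in aliquots 1, 2 and 3, and Adora1, Adora2b and Adora3 were listed at 0.

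Genes of renin control were examined because Gja5 and Gja4 occur in renin cells as well as in endothelium. Of 14 genes 7 were detected at 1 FPKM and 4 at 5 FPKM, with a median of 1.27 FPKM. The angiotensin receptor gene Agtr1a led with 481 ± 2.50 FPKM, followed by the renin cell marker Akr1b7 (24.8 ± 1.12 FPKM), the prostaglandin receptor Ptger4 (15.9 ± 0.504 FPKM) and the adenylate cyclase Adcy6 (6.04 ± 0.225 FPKM). Renin itself (Ren1, named after its values were seen) measured 3.63, 4.99 and 5.04 FPKM from 30, 47 and 50 reads in aliquots 1, 2 and 3. The Ren1 range overlapped that of Gjc1 and lay below Gja4 in each aliquot. Ace and Agt were listed at 0. The share of Gja5 and Gja4 that came from renin cells was not tested.

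The arterial programme of endothelium, to which Gja5 and Gja4 belong as markers, had 11 of 18 genes detected and a median of 4.62 FPKM. The semaphorin and VEGF co-receptor Nrp1 (746 ± 3.63 FPKM) and the ephrin Efnb2 (634 ± 9.26 FPKM) led, followed by the Notch ligand Jag1 (83.9 ± 0.853 FPKM) and the transcription factor Foxc1 (41.0 ± 1.29 FPKM). Nrp1, Efnb2 and Jag1 are also made by mesenchymal cells, so they do not mark endothelium alone. Which cells of the pool the Foxc1 reads came from cannot be told either. Dll4 (13.7 ± 1.16 FPKM), Notch4 (2.79 ± 0.180 FPKM) and Sox17 (2.66 ± 0.451 FPKM) were lower, and Sox18 and Bmx lay below the detection limit. Hey1 and Cxcr4 were listed at 0.

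**Figure D4:**
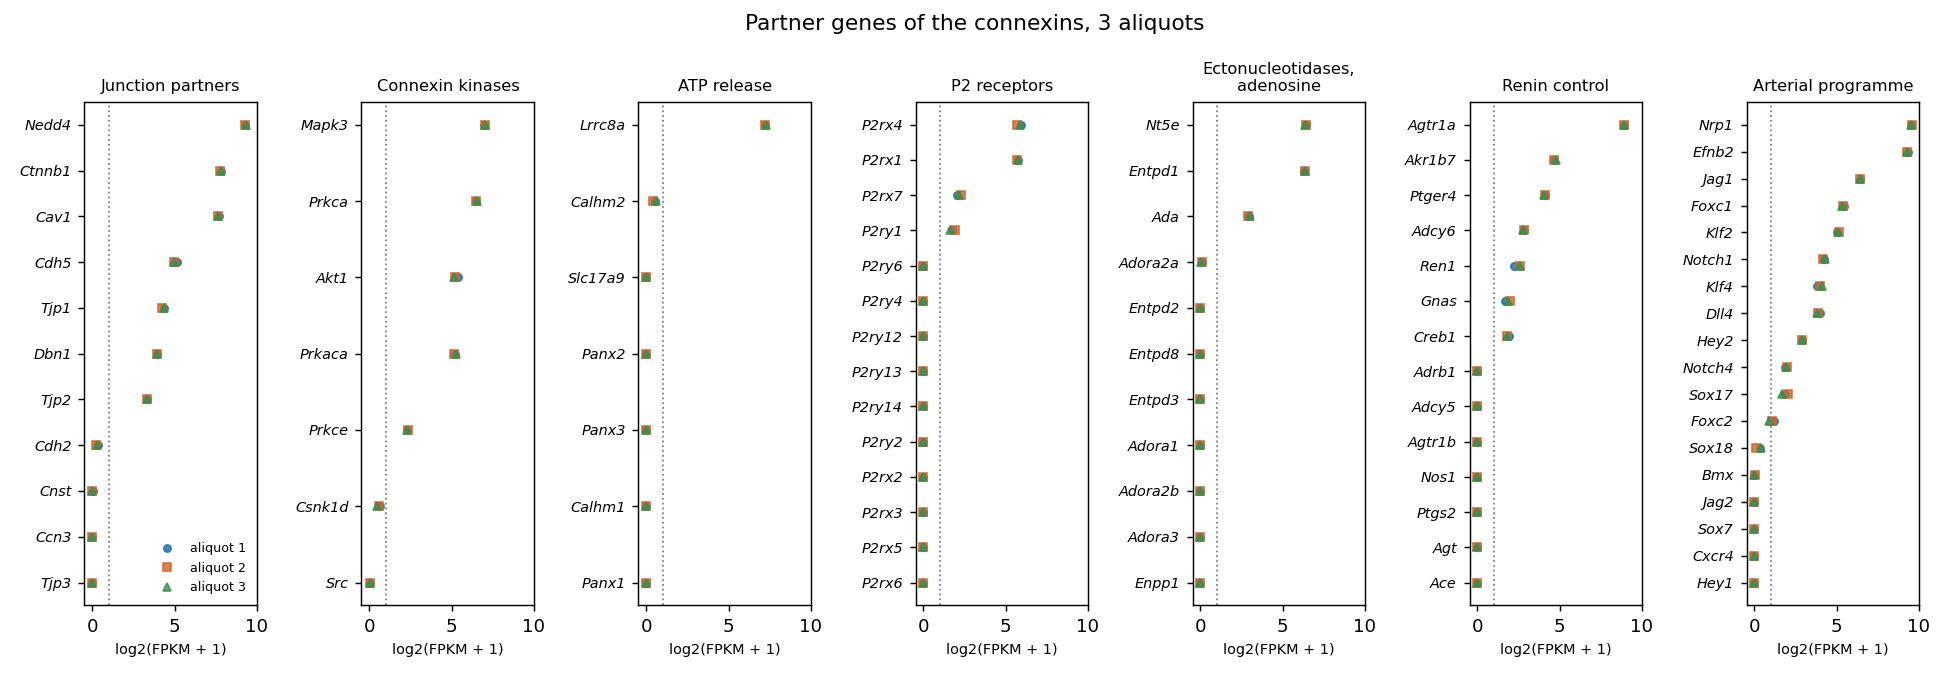
Levels as log2(FPKM + 1) of the genes on 7 partner lists, 1 point per aliquot, ordered by mean within each list; dotted lines mark 1 FPKM. Detected were 7 of 11 junction partners, 5 of 7 kinases, 1 of 7 ATP release genes, 4 of 14 P2 receptors and 3 of 11 ectonucleotidases with adenosine receptors, where 36.4% of protein-coding rows were detected.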

How the data were processed

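Per the submitters' processing notes, TopHat2 2.0.12, HTSeq 0.6.1 and GRCm38 were used; the sources used here give no settings, strand or annotation release. The deposited values are FPKM per aliquot, scaled by the authors to gene length and library reads only. Symbols were found for 37607 rows; coordinates and lengths come from GENCODE M21, which may not be the authors' release.

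Library totals were taken as the most frequent total implied by 1 read in low, single-transcript genes. Read numbers were the smallest whole numbers, within 0.0001 reads, that 1 whole gene length gave in all aliquots, or a multiple where that length then met the mean transcript length. All 11142 genes above 0 had a solution; a common factor can be missed. The recovery and the chi-square test were tested on simulated data. Since the deposited unit is FPKM, no count model was run.

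Members and lists were chosen with earlier results of these data known. Named were all members, other connexins or pannexins above 0, and up to 4 highest detected and 2 lowest undetected genes of each list; which of several genes tied at 0, and any further gene, were chosen after their values were seen. Some genes of these lists are not reported here, and counts leave them out. No likeness of pattern was computed, since 3 aliquots of 1 pool are too few. Analyses used Python 3.11.15, numpy 2.4.6, scipy 1.17.1 and pandas 2.3.3. Alternatives were other detection limits, pseudocounts, gene lengths, read minimums and scalings, and leaving out each aliquot.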

Additional observations from a re-analysis of the deposited data

How the results depend on the processing

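No paired analysis was possible because all samples belong to 1 group. Of 94 values under alternatives, 84 stayed within the spread of the aliquots or within 1.5 times the main count, and no ratio changed sign. That tally does not measure robustness, since many of these values could not have moved. Leaving out 1 of 3 aliquots cannot shift a mean ratio by more than the SD or lose a detected gene. The connexin counts repeat those of the members, and the fall to 2 members at 5 FPKM still counted as within 1.5 times. At a limit of 5 FPKM the detected P2 receptors numbered 2 and the renin control genes 4, and Gjc1 was lost, leaving 2 members detected. On log2(FPKM + 1), Gja5 to Gjc1 was 4.24 and Gja4 to Gjc1 2.66. Scaled to the longest transcript, Gja5 to Gja4 was 0.56, Gja5 to Gjc1 4.27 and Gja4 to Gjc1 3.72; with the longest transcript behind the implied length, chosen after seeing the data, Gja5 to Gja4 was 0.79. Without 1 aliquot, these log2 ratios ranged from 1.58 to 1.64, from 4.49 to 4.58 and from 2.85 to 2.95. Members detected, connexins detected and non-overlapping neighbours were 3, 3 and 2 without any 1 aliquot. These counts were fixed in advance and are no check. Fewer aliquots cannot make separate ranges overlap, and every undetected member or connexin was listed at 0 throughout. Genes beyond sampling noise numbered 99 in the chi-square test, 2 without aliquot 1, 98 without aliquot 2 and 65 without aliquot 3; the cause was not tested. The Benjamini-Hochberg adjusted chi-square p of Gja5 ranged from 0.32 to 0.80 over its alternatives. Gjc1 and Ren1 rest on under 300 reads in all, which limits their precision.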
